A study of Homo sapiens with 18 samples.

Results

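Epithelial identity transcription factors are DNA-binding proteins that keep on the genes of cell contacts, barrier and polarity. The 8 genes described here are the grainyhead-like genes GRHL1, GRHL2 and GRHL3, the zinc finger genes OVOL1 and OVOL2, the ETS genes ELF3 and EHF, and the Krüppel-like gene KLF5. They were taken by gene symbol, and each had 1 row among the 19849 genes of the deposited table. Their levels were compared between parental cells and their TGFβ-induced mesenchymal derivatives in A549, HCC827 and NCI-H358, 3 human non-small cell lung cancer lines. Each of the 6 groups was measured on 3 Affymetrix U133 Plus 2.0 arrays, which makes 18. Both states were grown in RPMI1640 with serum and glutamine. The mesenchymal cells (labelled EMT) had also received 2 ng/ml TGFβ for 3 weeks and spent the last day before lysis without it, and the labels name no treatment of the parental cells (labelled Parental). The study's methods give a range that ends at 3 weeks for A549 and one that starts at 3 weeks for HCC827 and NCI-H358. A difference in exposure between A549 and the other lines could therefore not be told apart from the line. The study describes the 3 arrays of a group as separate biological samples made at the same time, so the spread between them does not cover day-to-day variation. The derivatives are whole treated cultures, and on such arrays a lower level in every cell cannot be told apart from a smaller share of cells with the transcript.

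In epithelial-mesenchymal transition (EMT), cells give up cell-cell contacts and take on a migratory, fibroblast-like form. Grainyhead-like factors bind and open enhancers of junction genes, and GRHL2 in particular is known to activate CDH1 and CLDN4. OVOL1 and OVOL2 are repressors whose known targets include ZEB1, a repressor of epithelial genes, and ZEB1 in turn represses GRHL2 and OVOL2. ELF3 and EHF are ETS factors largely restricted to epithelia, and KLF5 acts in basal and progenitor cells of many epithelia. The question put to these arrays was which of the 8 genes changed upon EMT in each line, by how much, and whether the lines changed alike.

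All levels below are log2 values after RMA, a normalization that gives each probe set of an array 1 background-corrected value on a common log2 scale, so that a difference of 1 is a 2-fold difference. A gene was said to rise or fall when its limma Benjamini-Hochberg adjusted p over all 19849 genes was below 0.05. A stricter call followed the thresholds of the study, an adjusted p below 1e-05 and a change above 5-fold. Array medians ranged from 6.31 to 6.47, and replicate arrays differed with a standard deviation of 0.163 to 0.282 over all genes. The 5 epithelial markers CDH1, EPCAM, KRT8, KRT18 and KRT19 all fell in each line, and the 5 mesenchymal markers CDH2, VIM, FN1, SPARC and ZEB1 all rose in each line. Of 6 markers of blood and endothelial cells (PTPRC, CD14, CD3E, PECAM1, VWF, CDH5), CD14 fell by 1.36 in A549 and PECAM1 rose by 0.41 in HCC827, while no other change passed the test. Their summed level lay between 26.2 and 28.8 on all 18 arrays.

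Upon EMT the 8 factors fell in HCC827 and nearly as fully in NCI-H358, but 4 of them fell in A549. In HCC827, 8 of 8 fell, where 25% of all genes fell. In NCI-H358, 7 of 8 fell against 19.8% of all genes, and in A549 4 of 8 fell against 26.8% of all genes. None of the 8 rose in any line by this test, where 16.6% of all genes rose in A549, 20.8% in HCC827 and 21.5% for NCI-H358. The stricter call was passed by ELF3 alone in A549 (0.736% of all genes were called lower), and by GRHL1, GRHL2, OVOL2, ELF3 and EHF in HCC827 (1.63% of all genes) and in NCI-H358 (1.36%). The median log2 fold change of the 8 genes was -0.56 for A549, -3.12 for HCC827 and -3.49 for NCI-H358, beside -0.021, 0.0051 and 0.015 for all genes.

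**Figure D1:**
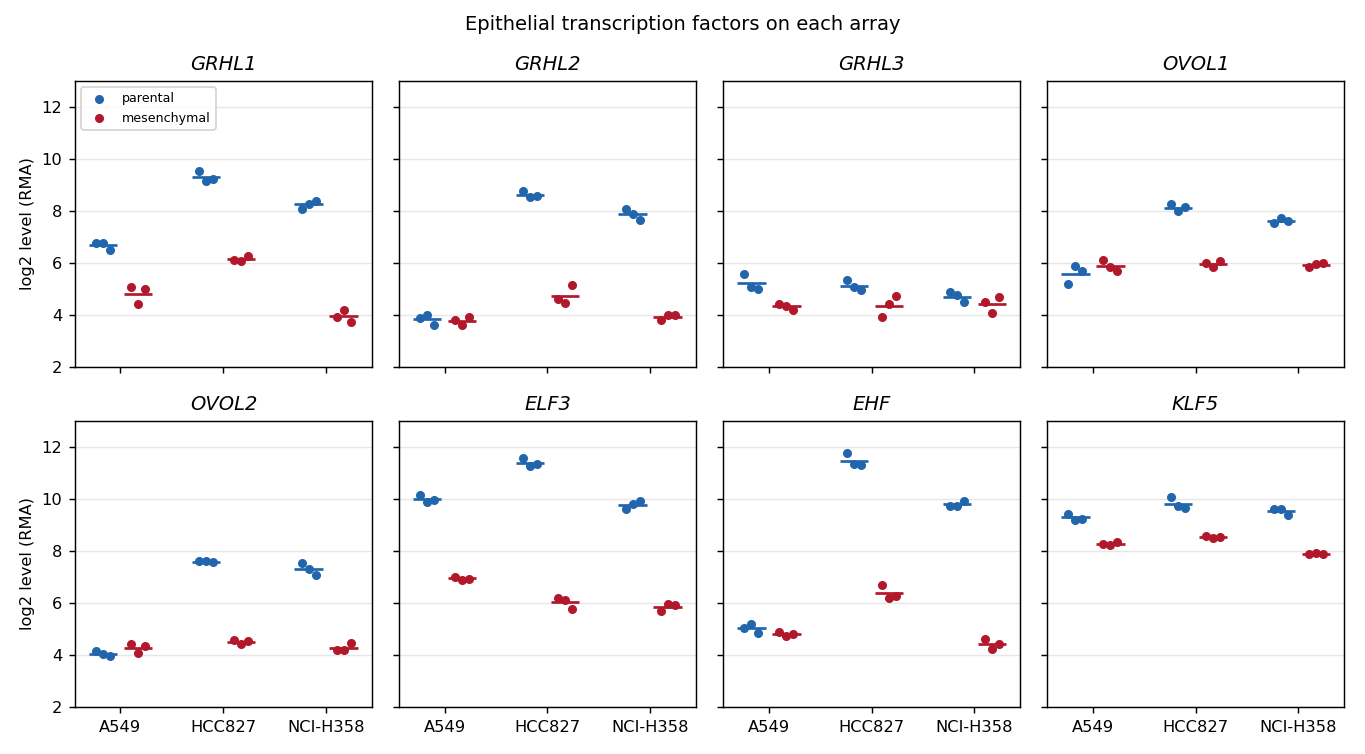
Log2 level (RMA) of each of the 8 genes on each of the 18 arrays, with parental arrays in blue, mesenchymal arrays in red and a bar at the mean of 3 arrays. ELF3, KLF5 and GRHL1 are lower in the mesenchymal cells of all 3 lines, whereas GRHL2, OVOL1, OVOL2 and EHF are low in parental A549 cells already.

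The promoters of GRHL2, OVOL1 and OVOL2 were not searched. RefSeq promoter windows of GRCh38.p14, 250 bases before to 50 after a start site, were searched for the other 5 genes, in 8 windows. Those of ELF3 and GRHL3 are shown because they hold letters that repressors of epithelial genes bind, and those of EHF and GRHL1 as windows without them. The letters CAGGTG, the E-box that ZEB and SNAI factors bind, were searched on both strands (CACCTG on the other), and so was the grainyhead core ACCGGT, which reads the same on both. CAGGTG occurred in 2 of the 8 windows, 1 of ELF3 and 1 of GRHL3, near its share of all 35116 promoter windows (20.6%). ACCGGT occurred in 0 of the 8 and in 1.83% of all windows. ELF3 holds the E-box 120 bases before its start. GRHL3 holds it 21 bases before its upstream start and again from base 10 after it. The windows of GRHL1, EHF and KLF5 hold neither set of letters. A match of letters is a description of the window and not a binding site. The 250 bases before the start are given 5′ to 3′ on the plus strand, with E-box letters in capitals, at chr1:202010337-202010586 for ELF3, chr1:24319107-24319356 for GRHL3, chr11:34624007-34624256 for EHF and chr2:9951443-9951692 for GRHL1.
ELF3: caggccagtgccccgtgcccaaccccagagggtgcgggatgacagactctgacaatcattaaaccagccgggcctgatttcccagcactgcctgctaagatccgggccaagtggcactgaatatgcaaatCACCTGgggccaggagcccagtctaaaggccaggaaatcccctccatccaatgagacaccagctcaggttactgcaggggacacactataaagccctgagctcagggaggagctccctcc
GRHL3: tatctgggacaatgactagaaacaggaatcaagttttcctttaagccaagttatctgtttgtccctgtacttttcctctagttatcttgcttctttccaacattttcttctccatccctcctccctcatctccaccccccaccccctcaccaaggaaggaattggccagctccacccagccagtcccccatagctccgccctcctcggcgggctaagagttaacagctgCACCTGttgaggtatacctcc
EHF: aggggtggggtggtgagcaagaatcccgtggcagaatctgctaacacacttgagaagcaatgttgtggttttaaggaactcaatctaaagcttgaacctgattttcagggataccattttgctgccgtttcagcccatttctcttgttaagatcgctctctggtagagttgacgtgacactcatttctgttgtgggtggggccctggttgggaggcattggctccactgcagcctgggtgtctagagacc
GRHL1: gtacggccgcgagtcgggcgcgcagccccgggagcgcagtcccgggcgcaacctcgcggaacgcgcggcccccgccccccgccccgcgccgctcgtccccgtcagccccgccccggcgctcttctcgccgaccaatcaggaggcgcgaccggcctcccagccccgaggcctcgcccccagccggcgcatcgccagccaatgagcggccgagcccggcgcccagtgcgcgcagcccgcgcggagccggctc

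Of the grainyhead-like genes, GRHL1 fell in all 3 lines. On the parental A549 arrays GRHL1 (Entrez gene 29841, probe set 222830_at) was at 6.76, 6.76 and 6.49, and on the mesenchymal ones at 5.06, 4.40 and 4.99. In HCC827 it was at 9.54, 9.16 and 9.21 in parental and at 6.11, 6.07 and 6.27 in mesenchymal cells, and in NCI-H358 at 8.09, 8.28 and 8.37 against 3.92, 4.17 and 3.74. In each line the mesenchymal arrays all lay under the parental ones. The mesenchymal means of NCI-H358 and A549 lay at percentiles 15.1 and 27.3 of the genes on the array. Whether such levels are above background was not tested. GRHL1 had a log2 fold change of -1.85 in A549 (standard error 0.16), a 3.61-fold decrease with a limma adjusted p of 4.75e-08. For HCC827 it was -3.15, an 8.90-fold decrease (3.38e-11), and for NCI-H358 -4.30, a 19.7-fold decrease (8.39e-13). The fall was larger in NCI-H358 than in A549 by 2.45 (95% interval of the difference -2.93 to -1.98) and larger than in HCC827 by 1.15 (interval -1.63 to -0.67), and all 3 pairs of lines differed by limma's test of the difference.

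GRHL2, the grainyhead-like gene most closely tied to epithelial junctions, fell in HCC827 and NCI-H358 and was low in A549 from the start. In A549 the 3 parental arrays of GRHL2 (Entrez gene 79977, probe set 219388_at) read 3.89, 4.01 and 3.60, and the mesenchymal ones 3.79, 3.62 and 3.93. In HCC827 the values were 8.76, 8.53 and 8.57 in parental and 4.60, 4.46 and 5.13 in mesenchymal cells, and in NCI-H358 8.08, 7.90 and 7.65 against 3.79, 3.98 and 3.98. The groups overlapped in A549 and lay far apart in the other lines. The log2 fold change was -3.89 in HCC827 (standard error 0.16, limma adjusted p = 1.80e-12) and -3.96 for NCI-H358 (1.71e-12), or 14.8-fold and 15.6-fold lower. In A549 it was -0.053 (95% interval -0.38 to 0.28, adjusted p = 0.823), and 0.015 when each array was centred on its median. Parental A549 cells were below parental HCC827 cells by 4.79 and below parental NCI-H358 cells by 4.05 (limma adjusted p = 5.19e-14 and 3.78e-13). The GRHL2 level of mesenchymal NCI-H358 cells did not differ beyond its spread from that of parental A549 cells (difference 0.085, adjusted p = 0.678), and both lay near percentile 15 of the genes on the array (14.8 and 14.6). The table gives no detection calls, so whether such a level is above background was not tested.

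GRHL3, a grainyhead-like factor of the skin barrier, had a small change. Its levels (Entrez gene 57822, probe set 232116_at) ranged from 3.90 to 5.57 over all 18 arrays. The groups lay at percentiles 20.2 to 33.4 of the genes on the array, and whether such levels are above background was not tested. In A549 GRHL3 read 5.57, 5.05 and 5.004 in parental and 4.43, 4.35 and 4.203 in mesenchymal cells, with no overlap. The log2 fold change was -0.88 in A549 (limma adjusted p = 0.00166) and -0.77 in HCC827 (adjusted p = 0.00438), both falls. In NCI-H358 it was -0.28 (95% interval -0.71 to 0.15, adjusted p = 0.313), and 1 mesenchymal array at 4.71 lay above a parental array at 4.49. No pair of lines differed in this change by limma's test (adjusted p = 0.792, 0.102 and 0.206), although the interval of NCI-H358 minus A549 ran from 0.0014 to 1.21.

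OVOL1 and OVOL2, zinc finger repressors that oppose ZEB1, followed the pattern of GRHL2. OVOL2 (Entrez gene 58495, probe set 211778_s_at) read 7.61, 7.61 and 7.56 in parental HCC827 cells and 4.59, 4.42 and 4.52 in the mesenchymal ones. In NCI-H358 it was at 7.54, 7.31 and 7.08 in parental and at 4.196, 4.196 and 4.46 in mesenchymal cells. In A549 it was at 4.15, 4.04 and 3.94 in parental and at 4.44, 4.09 and 4.33 in mesenchymal cells, so that the groups overlapped. OVOL2 fell by 3.09 in HCC827 (limma adjusted p = 5.45e-13) and had a log2 fold change of -3.03 in NCI-H358 (8.95e-13), 8.49-fold and 8.15-fold. In A549 the log2 fold change was 0.24 (95% interval 0.0012 to 0.48, adjusted p = 0.0993), which passed the test only with each array centred on its median (0.31, adjusted p = 0.0346) or without the second mesenchymal A549 array (0.34, adjusted p = 0.0295). The mesenchymal means of OVOL2 spanned 0.23 over the 3 lines, against 3.55 for the parental means. Those mesenchymal means lay at percentiles 19.3 to 23 of the genes on the array, and whether such levels are above background was not tested.

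OVOL1 (Entrez gene 5017, probe set 229396_at) was at 8.26, 7.99 and 8.13 in parental and at 6.01, 5.85 and 6.06 in mesenchymal HCC827 cells. In NCI-H358 the values were 7.53, 7.71 and 7.60 against 5.85, 5.97 and 5.98, again with no overlap. In A549 they were 5.18, 5.88 and 5.69 in parental and 6.10, 5.82 and 5.70 in mesenchymal cells, which overlapped. OVOL1 fell by 2.16 in HCC827 (limma adjusted p = 1.08e-09) and had a log2 fold change of -1.68 in NCI-H358 (3.48e-08), 4.47-fold and 3.21-fold and so under the stricter 5-fold threshold. In A549 the log2 fold change was 0.29 (95% interval -0.013 to 0.59, adjusted p = 0.117), and it passed the test only without the second parental A549 array (0.44, adjusted p = 0.0208). The mesenchymal means of OVOL1 spanned 0.10 over the 3 lines, and the parental means 2.55. The mesenchymal means lay at percentiles 43.4 to 44.3 of the genes on the array, and that of parental A549 cells at 38.9. Whether such levels are above background was not tested.

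ELF3 and EHF, the epithelial ETS factors, had the 2 largest decreases among the 8 genes in HCC827, and EHF the largest in NCI-H358, while in A549 ELF3 fell and EHF did not pass the test. ELF3 (Entrez gene 1999, probe set 210827_s_at) was at 10.16, 9.88 and 9.96 in parental and at 7.02, 6.89 and 6.94 in mesenchymal A549 cells. In HCC827 it went from 11.57, 11.29 and 11.34 to 6.19, 6.13 and 5.77, and in NCI-H358 from 9.62, 9.83 and 9.92 to 5.68, 5.94 and 5.92. No group of a line overlapped the other. ELF3 had a log2 fold change of -3.06 in A549 (standard error 0.12), an 8.31-fold decrease with a limma adjusted p of 1.56e-12. For HCC827 it was -5.37, a 41.3-fold decrease (1.32e-15) that ranked 16 from the lowest of all genes, and for NCI-H358 -3.94, a 15.4-fold decrease (7.76e-14). Each pair of lines differed in the fall of ELF3, which was larger in HCC827 than in A549 by 2.31 (95% interval of the difference -2.67 to -1.95).

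EHF (Entrez gene 26298, probe set 225645_at) was at 11.77, 11.35 and 11.32 in parental and at 6.70, 6.19 and 6.29 in mesenchymal HCC827 cells. In NCI-H358 it was at 9.72, 9.73 and 9.94 against 4.60, 4.21 and 4.41. EHF fell by 5.09 in HCC827, 34.0-fold (limma adjusted p = 2.03e-14), and had a log2 fold change of -5.39 in NCI-H358, 41.9-fold (1.64e-14), and their difference was -0.30 (95% interval -0.73 to 0.13, adjusted p = 0.285). In A549 EHF was at 5.05, 5.18 and 4.86 in parental and at 4.88, 4.73 and 4.80 in mesenchymal cells, with overlapping groups and a log2 fold change of -0.23 (95% interval -0.53 to 0.076, adjusted p = 0.225). Those A549 groups lay at percentiles 30.9 and 26.9 of the genes on the array, and mesenchymal NCI-H358 cells at 21. Whether such levels are above background was not tested. Parental A549 cells held less EHF than parental HCC827 cells by 6.45, the widest gap between parental lines among the 8 genes. Mesenchymal HCC827 cells still held more EHF than parental A549 cells, by 1.36 (limma adjusted p = 2.44e-07).

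KLF5 (Entrez gene 688, probe set 209212_s_at), which regulates growth in progenitor layers of epithelia, fell moderately in all 3 lines. In A549 it was at 9.43, 9.21 and 9.24 in parental and at 8.27, 8.24 and 8.35 in mesenchymal cells. In HCC827 it went from 10.07, 9.73 and 9.64 to 8.57, 8.51 and 8.53, and in NCI-H358 from 9.63, 9.63 and 9.38 to 7.90, 7.92 and 7.88. The groups did not overlap in any line. The log2 fold changes of KLF5 were -1.003, -1.28 and -1.64 in A549, HCC827 and NCI-H358 (limma adjusted p = 2.28e-07, 7.45e-09 and 3.40e-10), the last a 3.13-fold decrease. The fall was larger in NCI-H358 than in A549 by 0.64 (95% interval of the difference -0.93 to -0.35, adjusted p = 0.0011). The difference between NCI-H358 and HCC827 was -0.37 (adjusted p = 0.0462), and its adjusted p was 0.05 or more in 15 of 18 refits that each omitted an array. KLF5 stayed at percentile 68.3 or higher of the genes on the array in every group.

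**Figure D2:**
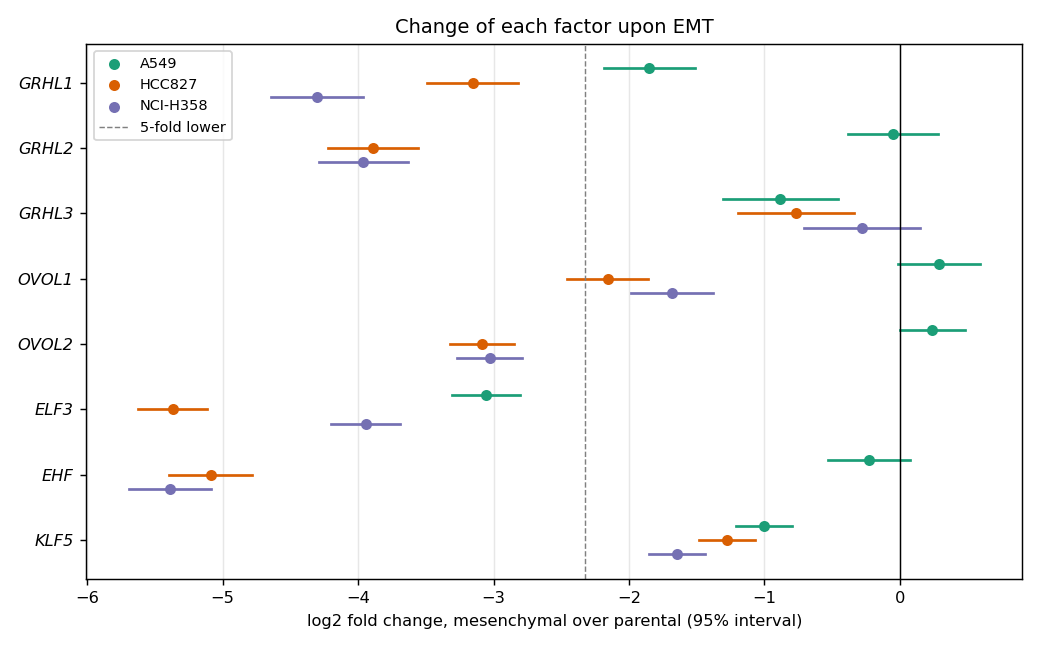
Log2 fold change of mesenchymal over parental cells for each gene and line, with 95% intervals from limma and a dashed line at a 5-fold decrease. The A549 intervals of GRHL2, OVOL1 and EHF cover 0, and that of OVOL2 starts at 0.0012, while those of ELF3 lie beyond the dashed line in all 3 lines.

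Every mesenchymal array lay below every parental array for 4 of the 8 genes in A549, 8 of 8 in HCC827 and 7 of 8 in NCI-H358, compared with 31.4%, 27.4% and 24.4% of all genes. With 3 arrays a group, the smallest two-sided p of an exact permutation test is 0.1. GRHL1, ELF3 and KLF5 fell in all 3 lines (3 of 8, against 6.14% of all genes). GRHL2, OVOL1, OVOL2 and EHF fell in HCC827 and NCI-H358 and did not pass the test in A549 (4 of 8, against 4.10% of all genes), and GRHL3 fell in A549 and HCC827.

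The difference of the change between lines was tested itself, for 24 combinations of gene and pair of lines, and 16 of them passed (42.2% of all genes passed for HCC827 minus A549, 42.8% for NCI-H358 minus A549 and 37.9% for NCI-H358 minus HCC827). Between HCC827 and A549, 6 of the 8 genes had a lower change in HCC827, as had 19.5% of all genes. Between NCI-H358 and A549, 7 of the 8 had a lower change in NCI-H358, as had 17.1% of all genes. Both counts include GRHL2, OVOL1, OVOL2 and EHF, which did not pass the test in A549 and were already low in its parental cells. HCC827 and NCI-H358 differed for 3 of the 8 genes, near the share of all genes (37.9%). GRHL1 and KLF5 fell further in NCI-H358 (16.8% of all genes had a lower change), and ELF3 fell further in HCC827. The comparisons of HCC827 and of NCI-H358 with A549 share the A549 arrays. For EHF the difference from A549 was -4.86 in HCC827 and -5.16 in NCI-H358, for GRHL2 it was -3.83 and -3.91, and for OVOL2 it was -3.33 and -3.27.

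Before treatment the lines were unequal. Of the 8 genes, 7 were higher in parental HCC827 than in parental A549 cells (27.2% of all genes were higher and 29.8% lower), and 6 were higher and 1 was lower in parental NCI-H358 than in parental A549 cells (28.5% and 29.4% of all genes). From parental HCC827 to parental NCI-H358 cells 7 were lower (25.5% of all genes were lower and 27.1% higher). ELF3 was the gene of the set with no difference beyond its spread between parental NCI-H358 and A549 cells (-0.21, 95% interval -0.46 to 0.042, limma adjusted p = 0.148). GRHL3 was lower in parental NCI-H358 than in parental A549 cells, by 0.51 (adjusted p = 0.0387). Among mesenchymal cells 4 of the 8 were higher and 1 lower in HCC827 than in A549 (28.3% of all genes either way). In NCI-H358, 4 were lower than in A549 (27.4% of all genes lower, 31.4% higher), and 4 lower than in HCC827 (24.4% lower, 28.2% higher). The 3 line means of a gene spanned less in mesenchymal than in parental cells for 7 of the 8 genes, as they did for 50% of all genes, and KLF5 was the exception, at 0.64 against 0.52. For EHF the span went from 6.45 to 1.98 and for GRHL2 from 4.79 to 0.95.

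In the order of the 6 groups, parental HCC827 cells were highest for 7 of the 8 genes (15.5% of all genes), and GRHL3 was highest in parental A549 cells. Of the 40 pairs of neighbours in these orders, 16 did not differ by limma's test, where 69.5% of such neighbours did not differ over all genes, each taken in its own order. The whole order of GRHL1 and of KLF5 was resolved, with each neighbour differing from the next. For GRHL3 no neighbours differed. For OVOL1 and OVOL2 the 4 lowest groups were the mesenchymal cells of the 3 lines and parental A549 cells, and no neighbours among these 4 differed. Groups further apart in that order did. OVOL2 was higher in mesenchymal HCC827 than in parental A549 cells by 0.47 (limma adjusted p = 0.00176), and OVOL1 was higher than in parental A549 cells by 0.39 in mesenchymal HCC827 (adjusted p = 0.0273) and by 0.35 in mesenchymal NCI-H358 cells (adjusted p = 0.045). The lowest level of GRHL1 was that of mesenchymal NCI-H358 cells, and for ELF3 mesenchymal HCC827 and NCI-H358 cells shared the lowest place (difference 0.18, adjusted p = 0.222), below mesenchymal A549 cells.

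ZEB1, the repressor that stands opposite to GRHL2 and OVOL2, was high in parental A549 cells, where these genes were low. Its log2 level was 9.33 ± 0.088 (SD, n = 3) in parental A549 cells, against 6.02 ± 0.17 (SD, n = 3) in parental HCC827 and 6.13 ± 0.30 (SD, n = 3) in parental NCI-H358 cells. It rose to 10.12, 10.20 and 9.80 in the mesenchymal cells of A549, HCC827 and NCI-H358, by 0.79 (limma adjusted p = 2.52e-05), 4.18 (adjusted p = 1.45e-14) and 3.66 (adjusted p = 1.20e-13). ZEB2, a close relative of ZEB1, rose by 5.32 in HCC827 and 2.20 in NCI-H358 and fell by 0.46 in A549. Over the 8 EMT-inducing transcription factors ZEB1, ZEB2, SNAI1, SNAI2, TWIST1, TWIST2, PRRX1 and TCF4, 5 rose and 2 fell in A549, 7 rose in HCC827 and 6 rose in NCI-H358. At the same adjusted p, 16.6%, 20.8% and 21.5% of all genes rose. The median log2 fold change of these 8 was 0.65, 1.06 and 1.02. SNAI2 rose most in A549, by 3.71, and TWIST2 fell there by 1.23. The level of CDH1, the E-cadherin gene, in parental A549 cells was 9.32 ± 0.18 (SD, n = 3), and it fell to 3.51 upon EMT. Parental HCC827 and NCI-H358 cells held more CDH1, at 13.06 and 12.61 (limma adjusted p = 4.03e-13 and 1.82e-12 against parental A549 cells). Their mesenchymal derivatives were at 10.11 and 8.67.

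**Figure D3:**
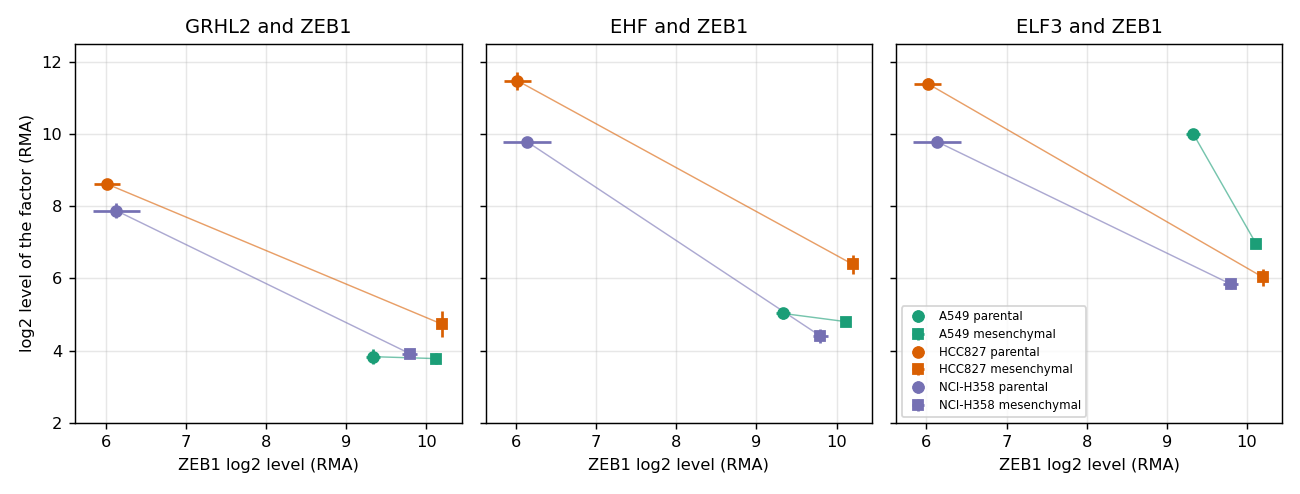
Mean log2 level of GRHL2, EHF and ELF3 (vertical axis) against that of ZEB1 (horizontal axis) in the 6 groups, with SD bars over 3 arrays, circles for parental and squares for mesenchymal cells, and a line joining both states of a cell line. Parental A549 cells, at a ZEB1 level of 9.33, lie beside the mesenchymal groups for GRHL2 and EHF and beside the parental groups for ELF3.

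Genes of the epithelial barrier that GRHL factors and their partners are known to control, or that mark the same program, were taken as a list of 25. The list was chosen with earlier results of these data known, so its counts are a description and no independent support. It shares CDH1 and EPCAM with the epithelial markers above. In HCC827, 23 of the 25 fell and none rose, and in NCI-H358 24 fell and 1, NECTIN4, rose. In A549 8 fell, 3 rose and 14 did not pass the test. At the same adjusted p 25%, 19.8% and 26.8% of all genes fell in HCC827, NCI-H358 and A549, and 20.8%, 21.5% and 16.6% rose. The 8 that fell and the 3 that rose in A549 are near these shares. The median log2 fold change of the list was -2.69, -2.96 and -0.057. ESRP1, which directs epithelial splicing, fell by 4.95 in HCC827 and fell by 7.20 in NCI-H358, and its log2 fold change in A549 was 0.041 (adjusted p = 0.81). TMEM30B, a flippase subunit, fell by 4.93 and fell by 6.71 in those lines, with 0.14 in A549 (adjusted p = 0.571). ERBB3, a receptor of the EGFR family, fell in all 3 lines, with log2 fold changes of -1.81 (A549), -5.64 (HCC827) and -5.97 (NCI-H358). CDH1, the gene of E-cadherin, fell in all 3 lines as well and fell most in A549 (-5.81, against -2.95 in HCC827 and -3.94 in NCI-H358). Its parental level was lower in A549 (9.32) than in HCC827 (13.06) and NCI-H358 (12.61). DSP, the desmosome gene desmoplakin, rose by 0.92 in A549. By the test of the difference itself, 22 of the 25 genes had a lower change in HCC827 than in A549 and 2 a higher one, and 21 had a lower and 1 a higher change in NCI-H358 than in A549. Over all genes 19.5% and 17.1% had a lower change in these comparisons, in the same order.

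**Figure D4:**
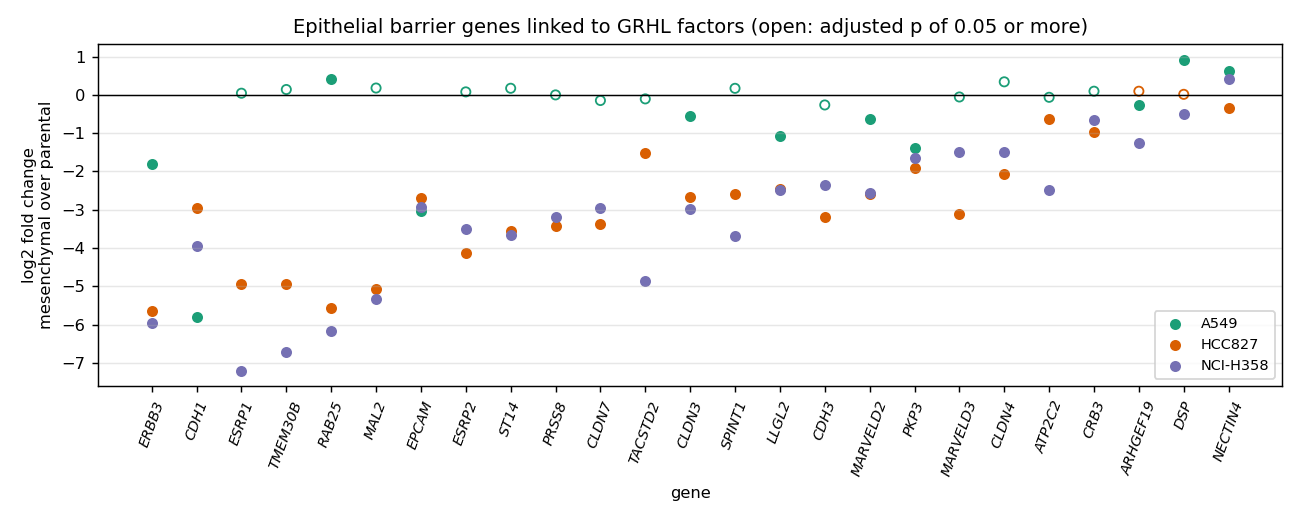
Log2 fold change of mesenchymal over parental cells for the 25 epithelial barrier genes, ordered by their mean over the 3 lines, with filled points for an adjusted p below 0.05 and open points otherwise. The HCC827 points are below 0 with an adjusted p below 0.05 for 23 genes and the NCI-H358 points for 24, against 8 for A549, among them CDH1, EPCAM and ERBB3.

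Structural relatives of the 8 factors were counted in the same way. Among 17 genes of the same families (TFCP2, TFCP2L1 and UBP1 beside the grainyhead-like genes, OVOL3, the ETS genes ELF1, ELF2, ELF4, ELF5 and SPDEF, and 8 Krüppel-like genes), 5 fell and 5 rose in A549, 6 fell and 5 rose in HCC827, and 5 fell and 4 rose in NCI-H358. Of all genes 26.8%, 25% and 19.8% fell and 16.6%, 20.8% and 21.5% rose in these lines, in the same order. None passed the stricter call in any line, and their median log2 fold changes were -0.03, 0.11 and -0.058. KLF4, a Krüppel-like factor of differentiating epithelia, was the relative with the lowest mean change, and it fell in every line (log2 fold changes -2.04 for A549, -0.71 for HCC827 and -1.25 for NCI-H358). KLF3 fell by 0.38, 0.85 and 0.35. KLF7 rose by 0.73, 1.33 and 0.50, and KLF9, which rose by 0.84 in A549 and 2.16 in HCC827, fell by 0.70 in NCI-H358.

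To see which genes ran most like each factor, the log2 levels of each were correlated over the 18 arrays with those of the 3637 other genes whose group means spanned at least 2. These arrays form 6 groups of 3 from 3 lines, so the coefficients describe shared group patterns and carry no p. The genes most like OVOL2 were ERP27 (Pearson r = 0.997), BSPRY (0.994) and LY6D (0.987), and the same 3 genes led for OVOL1 (0.984, 0.983 and 0.982). For GRHL2 they were ERP27 (0.993), PLAAT4 (listed as RARRES3, 0.987) and the membrane protease gene ST14 (0.986), and for EHF ELMO3 (0.994), PLAAT4 (0.992) and the tight junction gene CLDN3 (0.987). ERP27 itself had log2 fold changes of 0.24 for A549, -6.00 for HCC827 and -5.42 for NCI-H358. For ELF3 they were AP1M2 (0.981), an adaptor subunit of epithelial protein sorting, the polarity gene LLGL2 (0.978) and EFNA5 (0.977). For KLF5 they were TMC5 (0.972), PLS1 (0.972) and MAP3K5 (0.968), and for GRHL1 ALDH1A3 (0.969), SGMS2 (0.969) and COBL (0.968). GRHL3 had no such close match, with FA2H at 0.840 and EFHB and PDK4 both at 0.814. Among the factors themselves, r was highest between GRHL2 and OVOL2 (0.991) and between GRHL2 and EHF (0.987), and lowest between GRHL3 and OVOL1 (0.298).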

How the data were processed

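RNA of 18 cultures, 3 of each group, was hybridized to Affymetrix U133 Plus 2.0 arrays. The table deposited by the authors holds log2 values after RMA, 1 probe set for each of 19849 genes, and how that probe set was picked is not given in the sources used here. Other probe sets, isoforms and detection calls were not analysed here. Each column bore the title of 1 sample, 0 columns were left over, and groups came from the sample labels. The RefSeq gene table, used for current symbols, held 19326 of the gene IDs.

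One limma fit (version 3.58.1, R 4.3.3, lmFit then eBayes) took all genes, 18 arrays and 6 groups without covariates. Contrasts were the EMT change of each line, its difference between lines and every pair of groups, each with Benjamini-Hochberg adjustment over all genes. The 3 arrays per group limit the precision. Beside the 8 factors, genes were named when they were marker genes, the 2 highest or lowest of a list by mean log2 fold change, the 3 most like a factor by correlation, or the only ones counted. ESRP1, TMEM30B, SNAI2, FOXA1 and TP63 fall outside that rule and were named after their values were seen. The 8 factors and all lists were chosen with earlier results of these data known. The fit was tested on simulated data. Alternatives were a fit per line, an intensity trend, robust eBayes, median centring, a filter on dim genes (a group mean of at least 5), other thresholds, Student's t-test and each array left out, and a further one without the parental array of each line whose label number lies apart. The alternatives for the order of levels and the barrier genes, and the robust fit and that omission for the differences between lines, were chosen after seeing the data. Promoters were read with Python 3.11.15.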

Additional observations from a re-analysis of the deposited data

Results flagged for a closer look

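The change upon EMT differed between lines in 16 of 24 tests of the difference in limma, each with an adjusted p below 0.05 over all genes, where 42.2%, 42.8% and 37.9% of all genes passed for HCC827 minus A549, NCI-H358 minus A549 and NCI-H358 minus HCC827. The log2 differences of HCC827 minus A549 were -4.86 for EHF, -3.83 for GRHL2, -3.33 for OVOL2, -2.45 for OVOL1, -2.31 for ELF3 and -1.30 for GRHL1. Those of NCI-H358 minus A549 were -5.16 for EHF, -3.91 for GRHL2, -3.27 for OVOL2, -2.45 for GRHL1, -1.97 for OVOL1, -0.89 for ELF3 and -0.64 for KLF5. Those of NCI-H358 minus HCC827 were -1.15 for GRHL1, 1.42 for ELF3 and -0.37 for KLF5. These 3 of the 8 genes are near the 37.9% of all genes that passed there. The parental levels of GRHL2, OVOL1, OVOL2 and EHF were already low in A549, and how far that level set the size of these differences was not tested.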

How the results depend on the processing

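Under the intensity trend, robust eBayes, median centring, the filter on dim genes and leaving out the parental array of each line whose label number lies apart, the counts of factors that fell, of factors passing the stricter call and of differences between lines stayed within 1.5 times the values given. So did the first 2 counts in a separate fit of each line, which gives no difference between lines. With the methods' t-test after adjustment, the factors passing the stricter call numbered 0, 0 and 0 for A549, HCC827 and NCI-H358 (the cause was not tested), against 1, 5 and 5 at an unadjusted p below 0.05, and GRHL3 in HCC827 had an adjusted p of 0.106. With a threshold of 2-fold in place of 5-fold, 3 factors passed in A549. With 10-fold, 0 passed in A549 and 3 in HCC827. GRHL2 in A549, which was not called, changed sign with median centring (0.015) and without the second parental (0.036) or the second mesenchymal A549 array (0.027), with a range of -0.17 to 0.036 over single omissions. With 1 array left out, the counts of factors passing the stricter call stayed at 1, 5 and 5 in A549, HCC827 and NCI-H358, and those of factors that fell at 4, 8 and 7. The count of differences between lines ranged from 15 to 17, the neighbours not differing from 16 to 18, and the barrier genes that fell from 7 to 8 in A549, from 22 to 23 in HCC827 and at 24 in NCI-H358. Uncalled differences that changed sign were those of GRHL3 for HCC827 minus A549 (-0.064 and -0.075, range -0.075 to 0.34), GRHL2 for NCI-H358 minus HCC827 (0.13 and 0.029, range -0.21 to 0.13) and OVOL2 for NCI-H358 minus HCC827 (-0.056 and -0.03, range -0.056 to 0.17). KLF5 between NCI-H358 and HCC827 lost its call in 15 such fits. Comparisons uncalled in the report that passed in some were OVOL1 and OVOL2 in A549, and the differences of OVOL1 (NCI-H358 minus HCC827), KLF5 (HCC827 minus A549, -0.36) and GRHL3 (NCI-H358 minus A549, 0.77). No paired analysis was possible because the labels give no replicate numbers shared between groups.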

Other observations

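A further list held 10 transcription factors of epithelia. In A549 3 fell and 6 rose, in HCC827 7 fell and 2 rose, and in NCI-H358 8 fell and 0 rose (2 did not pass the test). Of all genes 26.8%, 25% and 19.8% fell and 16.6%, 20.8% and 21.5% rose in these lines, in the same order, so that the 3 that fell in A549 and the 2 that rose in HCC827 are near the share of all genes. The median log2 fold change was 0.51, -1.14 and -2.11. FOXA2, a factor of the airway and gut lining, fell in all 3 lines, by 2.03, 1.81 and 4.86, and TFAP2C by 3.87, 1.13 and 2.37. The pioneer factor FOXA1, named after its values were seen, rose by 2.24 in A549 and fell by 1.82 in HCC827 and by 1.85 in NCI-H358. Its changes in HCC827 and A549 differed by -4.06 (limma adjusted p = 1.62e-11). TP63, also named after its values were seen, is the master factor of basal epithelial cells. It rose by 1.81 in A549 and fell by 4.98 in NCI-H358, changes that differed by -6.80 (adjusted p = 4.11e-14). In HCC827 the log2 fold change of TP63 was -0.27 (limma adjusted p = 0.102). MYB rose by 2.56 in A549 and 1.39 in HCC827 and fell by 1.45 in NCI-H358, and TBX3 rose by 1.14 and 3.52 in A549 and HCC827, with -0.13 in NCI-H358 (adjusted p = 0.414).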
